A study of Homo sapiens with 105 samples.

Results

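The genes described here encode the chemokines that bind CXCR2, the receptor through which neutrophils are drawn to an inflamed surface: CXCL1, CXCL2, CXCL3, CXCL5, CXCL6, CXCL8 (interleukin 8, IL8 in older annotations) and PPBP. These 7 genes, of 19775 named by at least 1 probeset on the array, were chosen by name, and 12 of the 54613 probesets tested carry one of them. They were measured in Vk2/E6E7, an immortalized human vaginal epithelial cell line, on Affymetrix HG-U133 Plus 2.0 arrays, 1 array per sample. All cells were analysed at 6 h. Pro-inflammatory compounds (PICs) were TNF-a at 40 ng/ml (6 arrays), Pam3CSK4 at 10 μg/ml (6 arrays), MALP2 at 200 ng/ml (6 arrays), imiquimod at 30 mg/ml by the labels, a unit that the methods give as μg/ml (6 arrays), and nonoxynol-9 (N-9) at 12.5 μg/ml (9 arrays). Non-inflammatory compounds (NICs) were the gel formers HEC and CMC, each at 1 mg/ml (9 arrays each), and 54 arrays of untreated cells (GM) were the controls. All groups share this one line, which carries the viral oncogenes E6 and E7. The labels call each array a biological replicate and do not say which arrays, if any, shared a culture or a day.

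CXCR2 ligands are small secreted proteins of the CXC family that carry a Glu-Leu-Arg motif ahead of their first cysteine. They bind to matrix below the epithelium and guide neutrophils along the gradient, and CXCL8 and CXCL6 also engage the related receptor CXCR1. Epithelial cells make several of them within hours of cytokine or Toll-like receptor (TLR) stimulation, largely through NF-κB binding close to the transcription start and through stabilized mRNA. PPBP is best known from platelets, where proteases release its neutrophil-attracting form. TNF-a acts through its own receptors, Pam3CSK4 is a triacylated lipopeptide sensed by TLR2 with TLR1, MALP2 is a diacylated lipopeptide sensed by TLR2 with TLR6, imiquimod is a TLR7 ligand, and N-9 is a membrane-active spermicide.

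All 7 genes lie on chromosome 4 within 359 kb (RefSeq, GRCh38.p14, 73740569 to 74099195), CXCL8, CXCL6 and CXCL1 on the plus strand and PPBP, CXCL5, CXCL3 and CXCL2 on the minus strand. The 150 bases before each annotated start are shown because in 6 of the 7 genes they hold the letters of a κB site, the kind of site through which CXC chemokine genes are known to answer inflammatory signals, and in PPBP they do not. They are written 5′ to 3′ on the gene's strand, with GGAATTTCC in capitals.
CXCL1 (chr4:73869243-73869392, plus): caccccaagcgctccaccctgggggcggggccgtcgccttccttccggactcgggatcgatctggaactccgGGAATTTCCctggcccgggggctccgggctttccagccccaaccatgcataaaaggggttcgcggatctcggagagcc
CXCL2 (chr4:74099196-74099345, minus): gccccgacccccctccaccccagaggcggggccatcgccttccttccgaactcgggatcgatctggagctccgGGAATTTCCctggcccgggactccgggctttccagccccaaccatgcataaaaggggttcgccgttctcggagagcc
CXCL3 (chr4:74038690-74038839, minus): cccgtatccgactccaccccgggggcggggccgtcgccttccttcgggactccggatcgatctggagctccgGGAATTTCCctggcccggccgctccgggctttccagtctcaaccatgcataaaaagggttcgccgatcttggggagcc
CXCL5 (chr4:73998678-73998827, minus): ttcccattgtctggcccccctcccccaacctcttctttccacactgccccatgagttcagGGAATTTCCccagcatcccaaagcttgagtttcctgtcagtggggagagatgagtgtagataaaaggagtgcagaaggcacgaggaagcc
CXCL6 (chr4:73836528-73836677, plus): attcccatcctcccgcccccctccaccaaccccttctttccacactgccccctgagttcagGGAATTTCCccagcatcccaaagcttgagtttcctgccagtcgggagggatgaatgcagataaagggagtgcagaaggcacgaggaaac
CXCL8 (chr4:73740419-73740568, plus): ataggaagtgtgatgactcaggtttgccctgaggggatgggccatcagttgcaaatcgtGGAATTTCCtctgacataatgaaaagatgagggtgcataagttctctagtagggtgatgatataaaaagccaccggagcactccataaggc
PPBP (chr4:73988191-73988340, minus): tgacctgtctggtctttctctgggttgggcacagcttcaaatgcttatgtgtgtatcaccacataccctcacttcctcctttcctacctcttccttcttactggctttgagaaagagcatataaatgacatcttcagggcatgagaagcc

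GGAATTTCC stood in 6 of the 7 windows, each time on the gene's own strand, and began between 91 (CXCL8) and 77 (CXCL2) bases before the start. In PPBP these letters were not found on either strand of its window of 250 bases before to 50 after the start. Of 35116 RefSeq promoter windows of that length, 0.461% held GGAATTTCC on either strand. The AP-1 letters TGANTCA, present in 7.71% of windows, were found only in CXCL8 among the 7, from 137 to 131 bases before its start. The C/EBP letters TTGCNNAA (10.5% of windows) were found only in CXCL2 and PPBP and the letters TATAAA (11.5%) only in CXCL8 and PPBP. These motifs were chosen with the windows in view, and a match is a description of letters and not of binding. Over the 250 bases before the start, CXCL5 and CXCL6 were 85.3% identical in a global alignment, CXCL1 and CXCL3 81.4%, CXCL2 and CXCL3 73.4% and CXCL1 and CXCL2 70.1%, and the other 17 pairs between 43.9% and 54.2%. GC content over these bases was 37.6% for CXCL8 and 43.6% for PPBP and between 58.8% and 65.6% for the other 5 genes.

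Levels are the deposited log2 signals after quantile normalization, and each gene is read by its brightest probeset. The suffix x_at marks probesets whose probes can match other transcripts, which includes those of CXCL2, CXCL5 and CXCL8, and levels of different genes are not compared. A difference was called when limma's moderated test, 1 mean per group, gave a Benjamini-Hochberg adjusted p under 0.05 over all probesets and a fold over 2. GM replicate 52 and TNF-a replicate 6 were left out, so that 103 arrays were used. Values of GM replicate 52 correlated at most 0.048 with any other array, while the lowest r between any pair of the others was 0.840. TNF-a replicate 6 equals the mean of TNF-a replicates 1 to 3. In 23 arrays the values of 3 stretches of rows (101, 1001 and 10 rows) stood 1 row too low. These were 14 GM arrays, MALP2 and imiquimod replicates 1 to 3 and N-9 replicates 7 to 9. The brightest CXCL8 probeset (an x_at set) lies in the first stretch, and in those 14 GM arrays the deposited row read between 12.89 and 13.24, against 7.15 to 9.46 once the rows were put back. The r between that probeset and the second CXCL8 probeset (an s_at set), which lies outside the stretches, was 0.741 over the 103 arrays as deposited and 0.931 with the rows put back. All values below use the restored order. With the rows as deposited, CXCL8 would be higher with TNF-a by only 2.39 on the log2 scale and not called (limma adjusted p = 0.207). The other 6 genes' brightest probesets are outside the stretches.

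**Figure D1:**
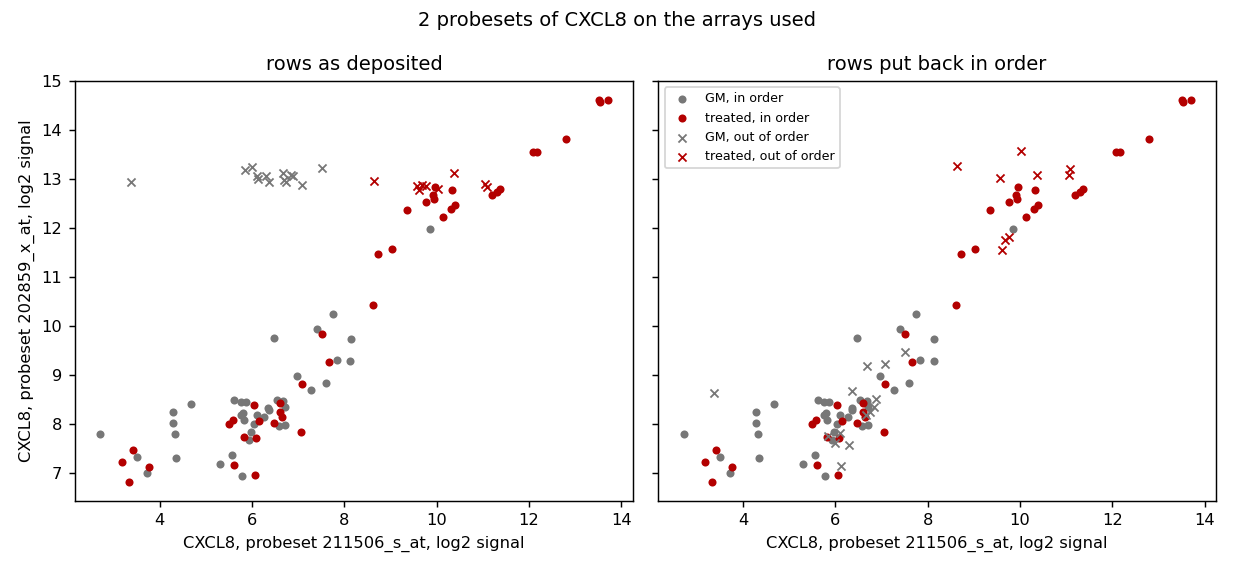
CXCL8 by its brightest probeset (vertical axis, log2 signal) against its second probeset (horizontal axis, log2 signal) on 103 arrays, with the rows as deposited (left) and put back in order (right). Crosses are the 23 arrays whose rows were out of order, grey is untreated and red is treated, and the crosses of the 14 GM arrays fall from 12.89 to 13.24 on the left to 7.15 to 9.46 on the right.

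CXCL8, the most studied neutrophil attractant of the family, rose with every PIC. In untreated cells it ranged from 6.94 to 11.98 with a median of 8.25 (log2 signal, n = 53), the highest being GM replicate 15 and the next 10.25. With TNF-a it stood at 12.38, 12.47, 12.22, 11.56 and 11.47 in replicates 1 to 5, so that every TNF-a array lay above all GM arrays but replicate 15 and 3 lay above that one too. With Pam3CSK4 the 6 arrays lay between 12.67 and 12.83 (median 12.76), with an SD of 0.063 against 0.90 in GM. On the second probeset these SDs were 0.69 and 1.31. With MALP2 CXCL8 ran from 13.09 to 14.61 (median 14.07) and with imiquimod from 12.38 to 13.27 (median 12.81), and every array of these groups exceeded every GM array. With N-9 the 9 arrays spread from 9.27 to 13.82 (median 11.75), all above the GM median and only 3 above every GM array. The differences from GM were 5.56 ± 0.38 (log2, SE) with MALP2, 4.43 ± 0.38 with imiquimod, 4.37 ± 0.38 with Pam3CSK4, 3.64 ± 0.41 with TNF-a and 3.35 ± 0.32 with N-9, that is 47.3-, 21.6-, 20.7-, 12.5- and 10.2-fold (limma, largest adjusted p = 2.0e-10). The second probeset gave 6.02, 3.47, 4.54, 3.58 and 3.85 in the same order, and all 5 were called.

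CXCL1, known as melanoma growth stimulating activity before its role in neutrophil recruitment, also rose with all 5 PICs, and by very different amounts. Untreated arrays ran from 4.53 to 8.79 (median 6.58). With TNF-a it read 9.29, 9.36, 9.09, 9.25 and 8.77, and 4 of these 5 arrays were above every GM array. It ran from 9.01 to 11.01 with Pam3CSK4 (median 9.82) and from 10.17 to 12.71 with MALP2 (median 11.52), with no overlap with GM in either. With imiquimod it lay within 8.63 and 9.22 (median 9.00), 4 of 6 arrays above every GM array. With N-9 it reached from 6.21 to 10.12 (median 7.44) and overlapped GM in 6 of 9 arrays. The log2 differences were 4.88 ± 0.38 (SE) with MALP2, 3.31 ± 0.38 with Pam3CSK4, 2.54 ± 0.41 with TNF-a, 2.34 ± 0.38 with imiquimod and 1.51 ± 0.32 with N-9 (limma, largest adjusted p = 0.00015). The fold ran from 2.84 with N-9 to 29.4 with MALP2.

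CXCL2 and CXCL3, the close relatives of CXCL1, rose with all 5 PICs too. CXCL2 ran from 7.38 to 10.86 in GM (median 8.31), again with replicate 15 highest and the next array at 9.79. With TNF-a it was 11.22, 11.38, 11.23, 9.62 and 9.65, replicates 1 to 3 above every GM array and replicates 4 and 5 below the second highest one. Pam3CSK4 arrays lay within 10.30 and 10.68 (median 10.52), MALP2 arrays within 10.96 and 11.90 (median 11.44), imiquimod arrays within 10.60 and 12.65 (median 11.69) and N-9 arrays within 8.93 and 12.80 (median 11.11). Only MALP2 was free of overlap with GM. The log2 differences were 3.21 ± 0.32 (SE) with imiquimod, 2.99 ± 0.32 with MALP2, 2.69 ± 0.27 with N-9, 2.18 ± 0.35 with TNF-a and 2.08 ± 0.32 with Pam3CSK4, or 4.22- to 9.24-fold (limma, largest adjusted p = 1.2e-05). CXCL2 has 2 dimmer probesets that did not follow throughout. One was called with imiquimod (log2 difference 3.18) and N-9 (1.86) only, and the other with none (0.065 to 0.73 over the PICs).

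CXCL3 stood between 6.33 and 10.39 in GM (median 7.41, second highest array 8.52). With TNF-a it was 10.89, 10.68, 10.69, 8.18 and 8.27, a gap of more than 2 log2 units between replicates 1 to 3 and replicates 4 and 5. It ran from 9.03 to 9.45 with Pam3CSK4 (median 9.16), from 9.89 to 11.19 with MALP2 (10.87), from 9.71 to 12.97 with imiquimod (11.33) and from 8.88 to 11.82 with N-9 (9.89). All 27 arrays of these 4 groups exceeded every GM array other than replicate 15, which overlapped each group. The log2 differences were 3.92 ± 0.36 (SE) with imiquimod, 3.29 ± 0.36 with MALP2, 2.86 ± 0.30 with N-9, 2.35 ± 0.39 with TNF-a and 1.78 ± 0.36 with Pam3CSK4 (limma, largest adjusted p = 0.00073). Imiquimod had the largest mean CXCL3 difference (15.1-fold) and Pam3CSK4 the smallest (3.44-fold). Imiquimod was called as different from Pam3CSK4, but not from MALP2 (limma adjusted p = 0.74), N-9 (0.10) or TNF-a (0.078). Imiquimod replicates 1 to 3 averaged 12.75 and replicates 4 to 6 averaged 9.86, against 11.03 and 10.33 with MALP2.

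PPBP, the platelet basic protein gene, ranged widely in untreated cells, from 1.21 to 7.52 (median 5.68, SD 1.61). The values carry no detection calls. Mean GM signals of PPBP (4.95), CXCL5 (5.11), CXCL6 (5.25) and CXCL1 (6.61) lay within the range of the leukocyte markers given below (4.02 to 7.28). That of CXCL3 (7.39) lay above this range but within that of the platelet markers (5.79 to 7.54). These probesets are therefore not shown to be above background in untreated cells, and the sizes of their differences depend on that. With TNF-a PPBP was 8.37, 7.66, 7.86, 7.13 and 7.04, and 3 of these exceeded every GM array. It ran from 7.13 to 7.56 with Pam3CSK4 (median 7.40), from 7.13 to 9.25 with MALP2 (8.02), from 8.06 to 10.97 with imiquimod (9.45) and from 3.37 to 8.14 with N-9 (6.94). Imiquimod alone was free of overlap with GM. The log2 differences were 4.50 ± 0.64 (SE) with imiquimod, 3.15 ± 0.64 with MALP2, 2.66 ± 0.69 with TNF-a, 2.42 ± 0.64 with Pam3CSK4 and 1.65 ± 0.53 with N-9, all called (limma, largest adjusted p = 0.037). When arrays of 3 consecutive replicate numbers were treated as a random block, PPBP was still called with MALP2 (adjusted p = 0.038) and imiquimod (0.00038), but not with TNF-a (0.65), Pam3CSK4 (0.40) or N-9 (0.23). The N-9 call also ended when any one of replicates 7, 8 or 9 was left out (log2 differences 1.45 to 1.49, adjusted p 0.053 to 0.059). In the 6 N-9 arrays whose rows were in order the difference was 0.56 (adjusted p = 0.58). In the 3 N-9 arrays whose rows had been out of order it was 4.13 and called (adjusted p = 0.0013). In the imiquimod arrays the PPBP difference was 6.82 within those whose rows had been out of order and 2.88 within the others, both called. With MALP2 these differences were 3.74 and 3.27, also both called. Leaving out 1 array ended the call in 5 of 6 cases with Pam3CSK4 and in 5 of 5 with TNF-a.

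CXCL5, an epithelial chemokine whose promoter was the closest to that of CXCL6, was called higher with MALP2 and imiquimod. GM arrays ran from 1.21 to 6.27 (median 5.26). CXCL5 was 6.09, 6.06, 6.32, 6.21 and 5.63 with TNF-a, only 1 of these above every GM array. It lay between 4.95 and 6.77 with Pam3CSK4, 5.57 and 8.50 with MALP2, 6.18 and 7.17 with imiquimod and 4.83 and 5.90 with N-9. The log2 differences were 1.77 ± 0.32 (SE) with MALP2 (3.41-fold) and 1.63 ± 0.32 with imiquimod (3.10-fold, limma adjusted p = 6.4e-05 or lower for both). With TNF-a it was 0.95 (95% confidence interval 0.27 to 1.64, adjusted p = 0.27), with Pam3CSK4 0.80 (0.17 to 1.43, adjusted p = 0.22) and with N-9 0.32 (adjusted p = 0.45). The SEs were 0.34 with TNF-a and 0.32 with Pam3CSK4, and 0.50 and 0.49 with the random block. These intervals are thus not shown to exclude 0 once runs are taken into account. MALP2 and imiquimod were not called as different from TNF-a or Pam3CSK4 for CXCL5 (adjusted p from 0.39 to 0.77). The calls rest on the brightest of 3 probesets: neither of the dimmer ones was called with any compound, and their log2 differences were 0.12 and 0.48 with MALP2 and 1.00 and 0.038 with imiquimod. Within the arrays whose rows had been out of order (3 treated, 14 GM) CXCL5 differed by 0.82 with MALP2 (adjusted p = 0.61) and 1.37 with imiquimod (0.22), and within the others (3 treated, 39 GM) by 2.74 and 1.92, both called.

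CXCL6, the nearest relative of CXCL5, was not called with any compound. Its arrays ran from 1.88 to 6.62 in GM (median 5.42), and the TNF-a arrays read 5.43, 6.52, 4.55, 5.19 and 5.07. No array of any treated group lay above the highest GM array. The log2 differences from GM ran from -0.30 (Pam3CSK4) to 0.42 (MALP2), with 95% confidence intervals reaching from -1.14 at the lowest to 1.26 at the highest over the 7 compounds. The smallest unadjusted p was 0.32.

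**Figure D2:**
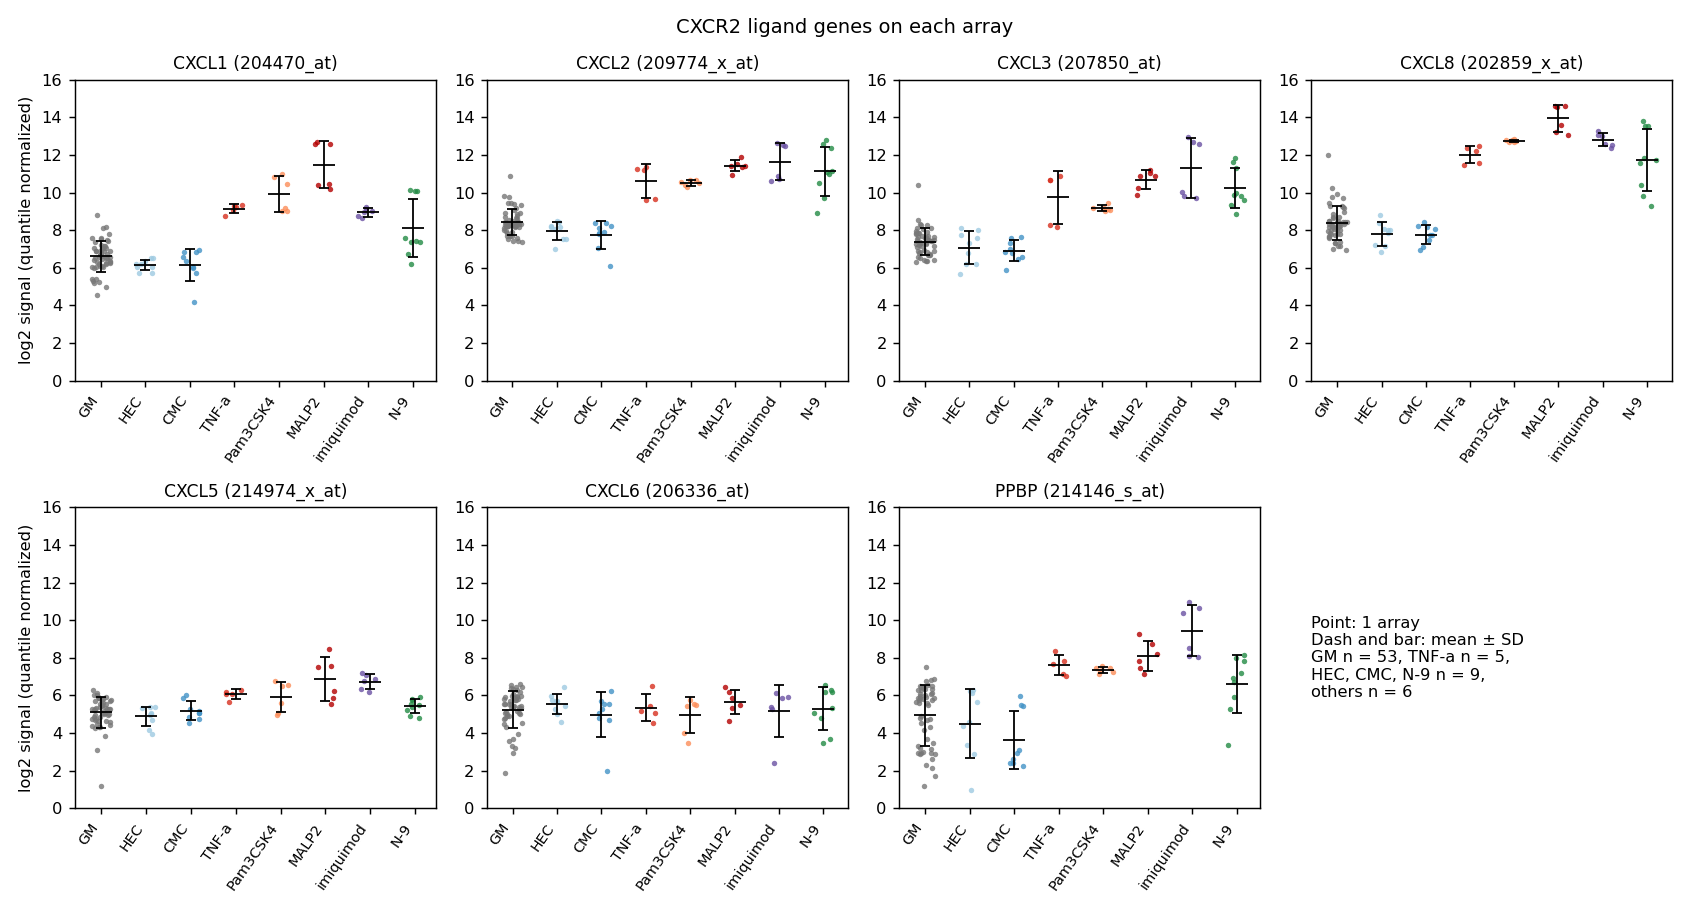
Log2 signal (vertical axis) of the 7 CXCR2 ligand genes on each of 103 arrays, by group (horizontal axis). Points are arrays, and the dash and bar are the mean ± SD. For CXCL1, CXCL2, CXCL3 and CXCL8 the 5 PIC groups sit above GM, HEC and CMC sit at or below the GM mean, and the groups of CXCL6 overlap throughout.

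Counted by compound, 5 of the 7 genes were called higher with TNF-a, where 0.306% of all probesets were, and 5 with Pam3CSK4 (0.593% of all). With MALP2 6 genes were called higher (1.36% of all probesets), with imiquimod 6 (1.75%) and with N-9 5 (2.29%). No gene was called lower with any compound, where 0.0879% (TNF-a), 0.148% (Pam3CSK4), 0.857% (MALP2), 1.7% (imiquimod) and 2.11% (N-9) of all probesets were. The median log2 difference of the 7 genes was 3.21 with imiquimod, 3.15 with MALP2, 2.35 with TNF-a, 2.08 with Pam3CSK4 and 1.65 with N-9, while that over all probesets lay between -0.015 (Pam3CSK4) and 0.0063 (TNF-a). With the run block the counts were 6 with imiquimod (1.14% of all probesets), 6 with MALP2 (0.932%), 4 with N-9 (1.26%), 4 with TNF-a (0.145%) and 4 with Pam3CSK4 (0.269%). The 4 genes called with all 5 PICs in both fits were CXCL1, CXCL2, CXCL3 and CXCL8. Every treated array was above every GM array for 2 genes with Pam3CSK4 (0.108% of all probesets), 3 with MALP2 (0.335%), 2 with imiquimod (0.643%), 0 with TNF-a (0.0366%) and 0 with N-9 (0.167%).

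**Figure D3:**
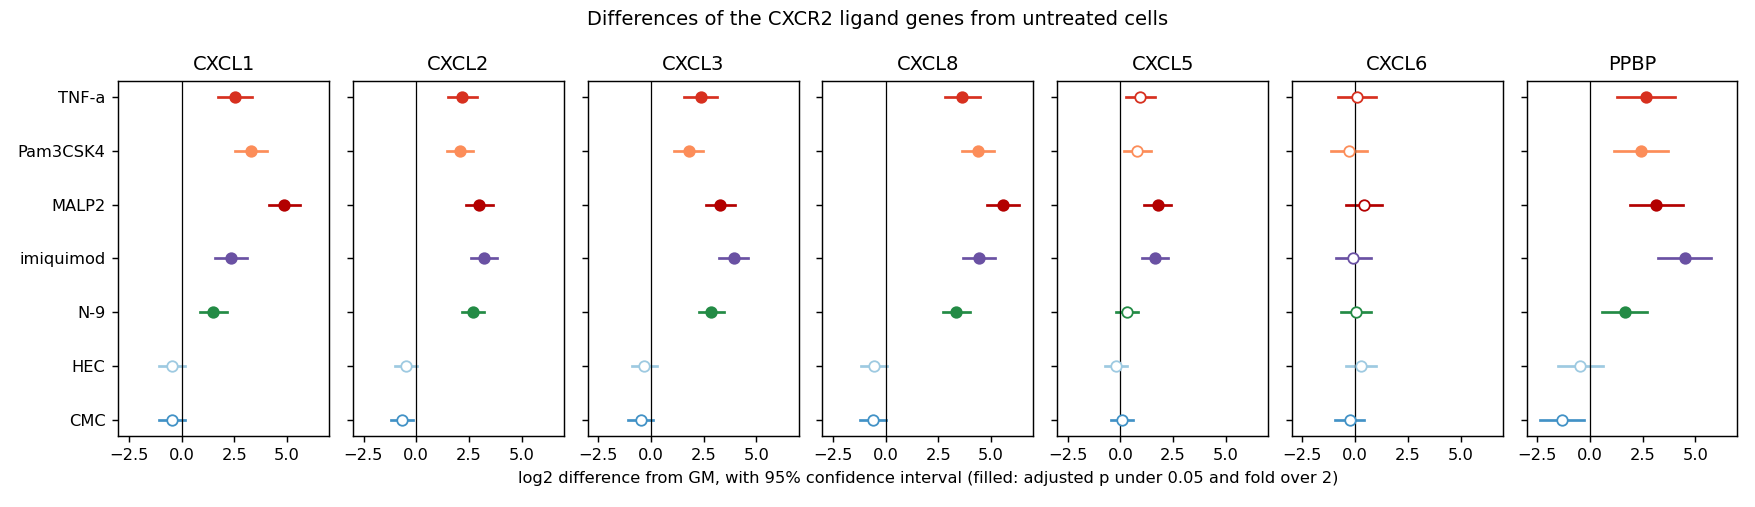
Log2 difference from GM with its 95% confidence interval (horizontal axis) for each gene (panels) and compound (vertical axis). Intervals are from the fit without the run block. Filled points were called (adjusted p under 0.05 and fold over 2). The points of CXCL8 lie farthest to the right with every PIC but imiquimod, where PPBP (4.50) is just above CXCL8 (4.43), the intervals of CXCL6 all cross 0, and no point of HEC or CMC is filled.

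GM replicate 15 was the highest untreated array for CXCL1 (8.79), CXCL2 (10.86), CXCL3 (10.39), CXCL8 (11.98) and PPBP (7.52). Over all probesets it was the highest GM array for 2.03%. Set aside, it left 3 genes free of overlap with TNF-a (0.123% of all probesets), 5 with Pam3CSK4 (0.185%), 5 with MALP2 (0.436%), 5 with imiquimod (0.692%) and 1, CXCL3, with N-9 (0.172%). The counts of genes called were the same for each compound without it.

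The gel formers moved none of these genes past the thresholds. With HEC, where 0.0934% of all probesets were called higher and 0.222% lower, the 7 log2 differences ran from -0.57 (CXCL8) to 0.29 (CXCL6), and 0 of 7 had an unadjusted p under 0.05. A dimmer CXCL2 probeset was lower by more, at -1.03, and not called (limma unadjusted p = 0.00099, adjusted p = 0.074). The remaining dimmer probesets of the members lay between -0.54 and -0.25 with HEC. With CMC, where 0% and 0.00732% were called, they ran from -1.32 (PPBP) to 0.081 (CXCL5). PPBP (95% confidence interval -2.38 to -0.26) and CXCL2 (-0.69, interval -1.22 to -0.16) had unadjusted p of 0.015 and 0.011, and adjusted p of 0.62 and 0.60. Their SEs were 0.53 and 0.27, and 0.78 and 0.32 with the run block, which these intervals leave out. The PPBP arrays ran from 2.26 to 6.00 with CMC (median 2.96) and from 0.97 to 6.29 with HEC (median 4.60), so that neither group reached the highest GM array and 1 HEC array lay below the lowest. For 6 of the 7 genes the difference was negative with each gel, which share the same GM arrays. Against GM replicates 1 to 9 alone the sign turned for CXCL2 (0.025), CXCL8 (0.16) and CXCL6 (-0.17) with HEC and for CXCL8 (0.11) and CXCL5 (-0.11) with CMC, none of them called. HEC and CMC, both cellulose ethers at the same dose and time, were not called as different from each other for any gene (limma, 0% of all probesets called), with differences of -0.31 (CXCL5) to 0.87 (PPBP). The interval for PPBP reached from -0.51 to 2.26, and that for CXCL8 from -0.77 to 0.87.

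Among the 10 pairs of PICs and HEC against CMC, 77 gene comparisons in all, limma called 9, and 4 with the run block. The shares of all probesets given for these pairs are from the fit without the block. Shares with the block were not computed for pairs of treatments, so the 4 calls have no such background. These compounds were given at different doses, so the differences are between the treatments as given. CXCL1 separated MALP2 from imiquimod by 2.54 on the log2 scale (5.80-fold higher with MALP2, adjusted p = 0.00068, where 1.03% of all probesets were called) and from N-9 by 3.37 (10.4-fold higher with MALP2, adjusted p = 2.1e-08, 5.98% of all), and both calls held with the run block. CXCL8 was 2.21 higher with MALP2 than with N-9 (4.63-fold, adjusted p = 0.00022), which also held. CXCL3 was 2.14 higher with imiquimod than with Pam3CSK4 (4.39-fold, adjusted p = 0.0023, 1.46% of all probesets), again with the run block too (adjusted p = 0.048). The remaining 5 calls did not hold with the block (adjusted p from 0.071 to 0.38). They were CXCL1 in MALP2 over TNF-a (log2 difference 2.34, 0.156% of all probesets) and in Pam3CSK4 over N-9 (1.81, 5.01%), CXCL5 in MALP2 over N-9 (1.45) and in imiquimod over N-9 (1.31, 4.95%), and PPBP in imiquimod over N-9 (2.85). No gene was called between TNF-a and imiquimod (1.28% of all probesets) or between TNF-a and N-9 (3.77%).

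The related lipopeptides Pam3CSK4 and MALP2 were not called as different for any of the 7 genes, where 0.112% of all probesets were. MALP2 had the higher mean in all 7, by 0.72 (CXCL6) to 1.57 (CXCL1) on the log2 scale, at doses of 200 ng/ml against 10 μg/ml. The 95% confidence interval was 0.56 to 2.58 for CXCL1 (adjusted p = 0.26), 0.56 to 2.46 for CXCL3 (0.23) and 0.19 to 2.20 for CXCL8 (0.57). Their SEs were 0.51, 0.48 and 0.51, and 0.67, 0.59 and 0.62 with the run block, which these intervals leave out. TNF-a and Pam3CSK4 gave no call either (0% of all probesets), with differences from -0.57 (CXCL3) to 0.77 (CXCL1).

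Arrays of one compound fell into sets that followed their replicate numbers. In what follows a run is a set of 3 consecutive replicate numbers of a group. The labels do not say what such arrays shared. Over all probesets, deviations from the group mean had a median r of 0.17 for arrays of the same run and -0.051 for arrays of different runs. MALP2 replicates 4 to 6 averaged 12.63 for CXCL1 and replicates 1 to 3 averaged 10.35, and CXCL8 (14.59 and 13.29) and CXCL5 (7.86 and 5.89) differed in the same direction, while CXCL3 did not (10.33 and 11.03). Imiquimod replicates 1 to 3 exceeded replicates 4 to 6 for CXCL3 (12.75 and 9.86), CXCL2 (12.56 and 10.74) and PPBP (10.68 and 8.22), while CXCL1 was nearly level (9.04 and 8.86). With N-9, replicates 4 to 6 held the highest CXCL1 (10.11, against 6.83 in replicates 1 to 3 and 7.40 in 7 to 9), CXCL2 (12.58, 9.72 and 11.10) and CXCL8 (13.64, 9.84 and 11.71), and the lowest PPBP (4.85, 6.95 and 7.99). With TNF-a, replicates 1 to 3 exceeded the mean of 4 and 5 for CXCL3 (10.75 and 8.23) and CXCL2 (11.28 and 9.63), whereas CXCL1 was close in both (9.25 and 9.01). With Pam3CSK4 the runs were level for CXCL8 (12.73 and 12.76), CXCL2 (10.55 and 10.49) and CXCL3 (9.12 and 9.22) and apart for CXCL1 (9.08 and 10.76). For CXCL8 this held on the brightest probeset only, since the second averaged 11.29 in replicates 1 to 3 and 10.07 in replicates 4 to 6.

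Leaving out whole runs changed several calls. Without TNF-a replicates 1 to 3, which leaves 2 arrays, CXCL8 alone was called, CXCL1 had a log2 difference of 2.40 (limma adjusted p = 0.16), CXCL2 1.19 (0.89) and CXCL3 0.84 (0.996). Without N-9 replicates 4 to 6, CXCL1 differed by 0.51 (adjusted p = 0.33). Without Pam3CSK4 replicates 4 to 6, CXCL3 differed by 1.73 (0.068), and without MALP2 replicates 4 to 6 the calls of CXCL5 (0.78, adjusted p = 0.40) and PPBP (2.65, 0.079) were lost. CXCL8 was called with each PIC whichever run was left out, and imiquimod kept its 6 calls. Within the arrays whose rows had been out of order, the CXCL8 difference was 4.98 for MALP2, 4.81 for imiquimod and 3.39 in the case of N-9, and within the others 6.19, 4.10 and 3.34, all called.

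**Figure D4:**
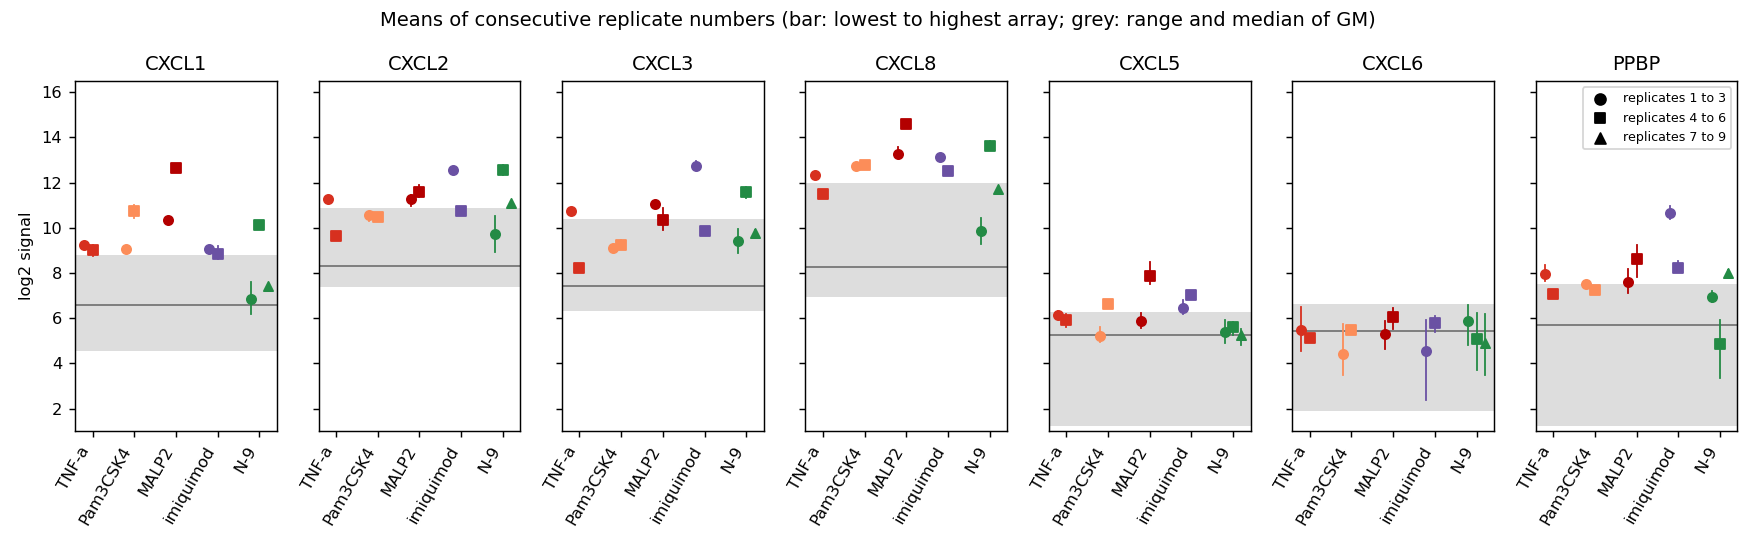
Mean log2 signal (vertical axis) of each run of 3 consecutive replicate numbers, for the 5 PICs (horizontal axis) and the 7 genes (panels). Bars reach from the lowest to the highest array of the run, and the grey band and line are the range and median of 53 GM arrays. N-9 replicates 4 to 6 (green squares) are the highest N-9 run for CXCL1, CXCL2, CXCL3 and CXCL8 and the lowest for PPBP.

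In untreated cells the runs were compared as well. Of the variance among the 53 GM arrays, 74.7% lay between the 18 runs for CXCL2 and 66.0% for CXCL8, against 46.7% for CXCL1, 55.5% for CXCL3, 49.6% for PPBP, 31.0% for CXCL5 and 28.0% for CXCL6. These shares are not corrected for the number of runs, so part of each arises even where runs do not differ. The lowest, those of CXCL5 and CXCL6, do not by themselves show variation between runs. Run means of CXCL8 ran from 7.24 to 9.98 and those of CXCL2 from 7.50 to 9.68. Of 21 gene pairs compared over the 18 run means, CXCL2 with CXCL8 (Pearson r = 0.73, permutation p = 0.00068, adjusted p = 0.014, Spearman rho = 0.61, permutation p = 0.0088, adjusted p = 0.092) and CXCL1 with PPBP (r = 0.66, permutation p = 0.0027, adjusted p = 0.029, rho = 0.66, permutation p = 0.0034, adjusted p = 0.070) passed for r after adjustment, and 0 passed for rho. Without the 2 runs farthest from the median of the first gene, r was 0.73 for CXCL2 with CXCL8 and 0.68 for CXCL1 with PPBP. The run of GM replicates 13 to 15, which holds replicate 15, was kept for both pairs, and r without it was not computed. In the 13 runs whose rows were in order it was 0.82 and 0.62. The remaining 19 pairs, the close relatives CXCL1 and CXCL2 (r = -0.079) and CXCL5 and CXCL6 (r = 0.40) among them, did not pass.

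**Figure D5:**
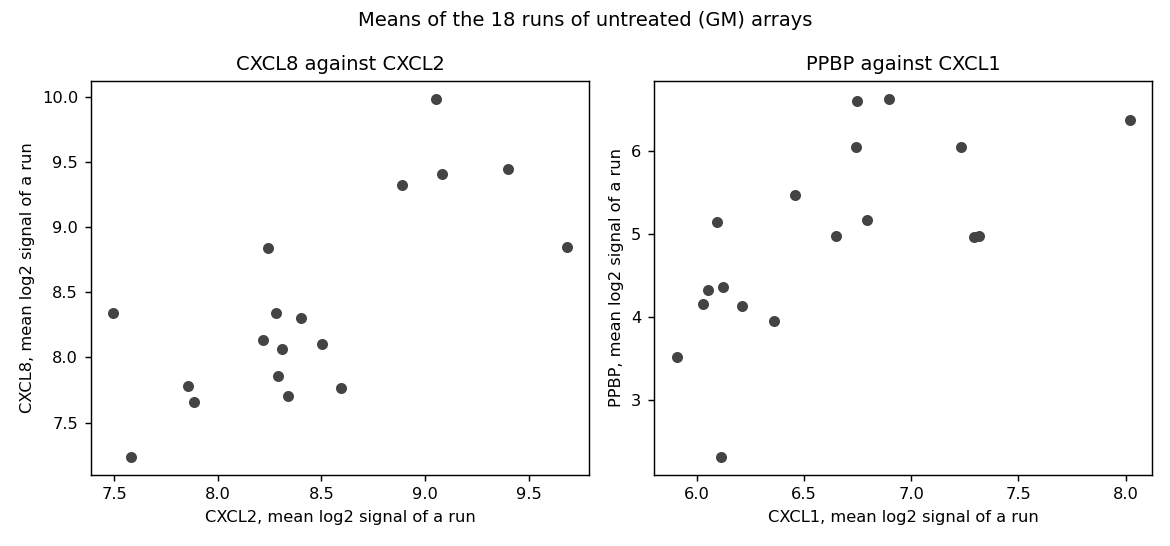
Mean log2 signal of the 18 runs of GM arrays for CXCL8 against CXCL2 (left) and PPBP against CXCL1 (right). Each point is a run of 3 arrays (2 for the run that held replicate 52), and r is 0.73 and 0.66. These are the 2 of 21 pairs that passed for r after adjustment, and neither passed for rho.

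Genes around these chemokines were read from lists chosen for their roles. The receptors CXCR1, CXCR2 and ACKR1, the last a decoy that binds several chemokines, had 0 of 3 called with any compound. Of 10 other CXC chemokines, CXCL10 and CXCL11, which attract T cells through CXCR3, were called higher with TNF-a (log2 differences 4.91 and 4.48), Pam3CSK4 (3.41 and 2.65) and MALP2 (3.81 and 3.45), and CXCL16 with MALP2 (1.61). The CXCL11 call with Pam3CSK4 did not hold with the run block (adjusted p = 0.057). With imiquimod and N-9 0 of these 10 were called, where 6 and 5 CXCR2 ligands were. CXCL10 was at 7.73 ± 1.02 (SD, n = 53) in GM, 8.28 ± 0.85 with imiquimod and 7.62 ± 0.35 with N-9.

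Of 13 measured transcription regulators known to act on these promoters, 6 were called higher with N-9, 4 with MALP2 and 3 each with imiquimod, TNF-a and Pam3CSK4, and 0 lower. NFKBIZ, an inducible IκB family protein that works with NF-κB in the nucleus, was higher with TNF-a (log2 difference 1.10), Pam3CSK4 (1.76), MALP2 (2.16), imiquimod (1.54) and N-9 (1.14). RELB, an NF-κB subunit, was higher with TNF-a (1.52), Pam3CSK4 (1.31), MALP2 (1.05) and imiquimod (1.22), and the NF-κB inhibitor NFKBIA with TNF-a (2.02), MALP2 (1.37) and N-9 (1.36). The AP-1 genes FOS (2.76), FOSL1 (1.60) and JUNB (1.44) had the largest changes with N-9, CEBPD rose with it too (1.27), and FOSL1 rose with imiquimod (1.38). NFKB2, another NF-κB subunit, was higher with Pam3CSK4 (1.19) and MALP2 (1.02). Of 9 genes of mRNA decay and stability, ZFP36, which destabilizes AU-rich transcripts, was called with N-9 (1.68) and none with the other compounds.

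Among 11 measured epithelial genes that act on neutrophils or induce these chemokines, 5 were called higher with Pam3CSK4, 4 each with TNF-a and MALP2, and 2 each with imiquimod and N-9. IL36G, an interleukin 1 family cytokine, rose with TNF-a (2.83), Pam3CSK4 (3.97), MALP2 (4.67) and imiquimod (1.63). IL6 rose with imiquimod (2.46), N-9 (1.99) and MALP2 (1.13). ICAM1, which neutrophils adhere to, rose with TNF-a (1.48), Pam3CSK4 (2.19) and MALP2 (1.14). IL1A was higher with Pam3CSK4 (1.76), TNF-a (1.62) and N-9 (1.59), and S100A9, a subunit of calprotectin, with MALP2 (1.94) and Pam3CSK4 (2.29). IL1B was higher with Pam3CSK4 (1.20) and TNF-a (1.11). The TNF-a calls of IL1A and IL1B did not hold with the run block (adjusted p = 0.095 and 0.072). Of 8 receptors and adaptors of the compounds, TLR2 was called higher with TNF-a (1.42), Pam3CSK4 (1.72), MALP2 (2.52) and imiquimod (1.48). MYD88 (1.14) and TNFRSF1B (1.53) were called higher with MALP2 and TLR6 lower with imiquimod (-1.26), the last 2 not with the run block.

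For each of the 6 genes called with a compound, the 3 other genes with the most similar levels over the 103 arrays were taken. CCL20 was nearest to CXCL8 (Pearson r = 0.92) and to CXCL2 (0.90), EDN1 to CXCL1 (0.85), SOCS1 to CXCL3 (0.82), IL13RA2 to PPBP (0.70) and OLR1 to CXCL5 (0.60). TNFAIP3 was among the nearest 3 for CXCL8 (0.88), CXCL1 (0.80) and CXCL3 (0.81). Among the members themselves CXCL2 was nearest to CXCL8 (0.93) and to CXCL3 (0.93), and CXCL6 had r between -0.03 and 0.18 with the other 6. These correlations run over treated and untreated arrays together and so carry the differences between groups.

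The 6 measured epithelial markers had mean GM signals from 11.28 to 15.06, and 0 of 6 were called with any compound. The 8 markers of neutrophils and other leukocytes had mean GM signals from 4.02 to 7.28, the 4 of platelets from 5.79 to 7.54 and the 4 of fibroblasts and endothelium from 4.43 to 10.83, the highest being COL1A1. The summed level of the platelet markers ran from 8.56 to 9.62 in GM and from 9.09 to 9.74 with imiquimod, where PPBP was highest, and 0 of 4 were called there. CD14, a monocyte marker, was called lower with imiquimod (-1.59), though not with the run block (adjusted p = 0.15), and 0 of 8 leukocyte markers were called with the other compounds. For ACTB, the signal of the 3′ probeset less that of the 5′ one, which rises as RNA degrades, was 0.95 ± 0.68 (SD, n = 6) on the log2 scale with imiquimod, 0.43 ± 0.28 in GM and 0.33 to 0.49 (means) in the other groups. Its part in the imiquimod values was not tested.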

How the data were processed

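RNA of Vk2/E6E7 cells was hybridised to 105 Affymetrix HG-U133 Plus 2.0 arrays. The deposited values, made by the authors, are log2 signals of 54675 probesets. MAS5 and GCOS 1.3 are named in the submitters' processing notes, whereas the methods describe RMA, so the summarization behind the values is not settled. The number of arrays per group limits the precision.

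The members and lists were chosen with earlier results of these data known. Probesets were named from the platform annotation given with the series (41097 with 1 gene, 1801 with several, 11777 with none listed), and a gene was read by its brightest probeset that names it alone. For each list the rule was to name at most the 3 called genes with the largest change per treatment. The remaining called genes of the lists were added after their values were seen, so that every call is given. For likeness the rule took the nearest 3 genes. The 62 control probesets were left out, rows out of order were put back, and the 103 arrays used were quantile normalized. One linear model with 1 mean per group was fitted in limma 3.58.1 (R 4.3.3), with Benjamini-Hochberg adjustment over 54613 probesets. A call needed an adjusted p under 0.05 and a fold over 2. Rows of an array counted as out of order where moving them by 1 row raised the correlation with the per-row median by over 0.5. Runs of 3 replicate numbers were a random block (duplicateCorrelation, 0.43) in an alternative. Correlations over runs used permutation tests (SciPy 1.17.1, two-sided). The limma script was tested on simulated data in which arrays were drawn independently. That test therefore does not cover arrays of a run that deviate together, as they do here. Promoters came from RefSeq (7 of 7 matched) and were aligned with Biopython 1.88. The alternatives on row order and on GM replicate 15 were chosen after seeing the data. Replicate numbers were not used to pair the samples in the main fit. Of 50 same-numbered pairs with GM, 13 had correlated deviations over 0.1. These were 6 of 9 pairs with N-9, 6 of 9 with HEC and 1 of 5 with TNF-a. Whether same-numbered HEC and N-9 arrays shared something with GM is not given by the labels.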

Additional observations from a re-analysis of the deposited data

Results flagged for a closer look

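In 4 of 49 groups of arrays (7 genes by 7 treatments) 1 array stood apart from the rest by Dixon's criterion, which chance alone meets in about 1 of 20 groups. CXCL1 was at 4.16 (log2 signal) in CMC replicate 2, with the next CMC array at 5.72 and the highest at 6.94. CXCL6 was at 2.00 in the same CMC array, with the next at 4.69, and at 2.39 in imiquimod replicate 2, with the next at 5.31. CXCL3 was at 9.45 in Pam3CSK4 replicate 5, above the other 5 arrays (9.03 to 9.18). None of these 4 groups had its call changed when that array was left out.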

How the results depend on the processing

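Of 658 values of 49 gene and treatment results under 15 alternatives, 16 were no longer called and none was newly called. No called value changed sign. The lost calls were those of PPBP with TNF-a, Pam3CSK4 and N-9, of CXCL8 with TNF-a with the rows as deposited (2.39), and of CXCL5 with MALP2 (0.82) and imiquimod (1.37) within the arrays whose rows had been out of order. When arrays were left out, the number of genes called with TNF-a ran from 1 (without replicates 1 to 3) to 4, with Pam3CSK4 from 3 (without replicates 4 to 6) to 5, with MALP2 from 4 to 6 and with N-9 from 4 to 5, and with imiquimod it was 6 throughout. Between treatments 9 calls became 4 with the random block for runs, and the other alternatives gave 7 to 11. With controls limited to GM replicates 1 to 9 and the replicate number as a block, 10 calls were made between treatments, against 9 without the block, and the block changed no count of genes called with a compound. PPBP with N-9 was called in neither of these fits. Same-numbered arrays deviated together in 13 of 50 pairs (r over 0.1), 6 of them with N-9 and 6 with HEC, and 9 of 50 correlated best with their own number. CXCL5, CXCL6 and PPBP had mean signals below the median of all probesets and were not tested under the filter on dim probesets, where 4 genes were called with each PIC. Signs of values that were not called changed in 24 cases. The cause of these changes was not tested.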
